A study of Mus musculus with 8 samples.

Results

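The p53 pathway was described through 34 genes: Trp53, which encodes p53, and genes known as its targets or regulators. They were chosen as the rows of the deposited table whose symbol was on a fixed list of 34 names and whose mean over 8 libraries was at least 0.5 FPKM. FPKM is a fragment count scaled to transcript length and to the mapped fragments of the library. All 34 names were found among the 24067 genes of the table and all 34 passed the minimum, as did 12517 genes in all. The lowest means were 0.779 FPKM for Pmaip1 and 2.03 for Plk3, so no member lay just outside the limit.

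The libraries came from chondrocytes, the cells of cartilage, taken from the knee ends of thigh bone and shin bone (femoral condyles, tibial plateaus) of ICR mice aged 5 days. These primary cells were kept at 3% oxygen in medium with 10% serum. A total of 4 libraries came from cells given 50 nM of a miR-204 mimic, a small RNA that imitates the natural microRNA, and 4 from cells given 50 nM of the control small RNA miR-Ctrl. Transfection lasted 24 h in both groups, with harvest 24 h after its end, so that all values belong to a single time. The question was how miR-204 changes the mRNA levels of these cells. The labels number the replicates 1 to 4 in each group. No label tells whether a replicate was a culture or an animal of its own, so a p-value here reflects only how far these libraries spread, and that spread may be technical.

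p53 is a transcription factor that damage to DNA and other stresses stabilise. It switches on genes that halt the cell cycle, such as Cdkn1a, genes that prepare cell death, such as Bax and Fas, and genes of DNA repair and metabolism. Its target Mdm2 encodes the ligase that marks p53 for breakdown, which closes a feedback loop. In cartilage, p53 is known for its part in the death and senescence of chondrocytes. A microRNA acts on mRNAs by pairing of its seed, bases 2 to 8, mostly with sites in the 3′ UTR.

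The cells expressed the markers that define chondrocytes: all 10 of that list were measured, and their summed level was 13160 and 13280 FPKM in the replicate 2 libraries and 25170 to 40880 in the other 6. All 9 fibroblast and synovial lining markers were measured too. They summed to 3898 (miR-Ctrl) and 3445 FPKM (miR-204) in replicate 2 and to 1938 to 4594 in the other 6. Replicate 2 stood apart in both groups. On the leading principal component (57.7% of the variance) its libraries were at 42.6 and 39.0 and the other 6 between −30.4 and 2.17. A list of 11 acute-phase, chemokine and protease genes summed to 41820 (miR-Ctrl) and 27020 FPKM (miR-204) in replicate 2, against 76.4 to 639 FPKM elsewhere. Relative to miR-Ctrl replicate 1, estimated sequencing depth was 0.774 and 0.798 in these libraries and 0.929 to 0.963 in the others. Paired counts are therefore also given without replicate 2 where they moved by more than 1.5 times.

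The sequence of the mimicked strand is shown because its seed decides which members carry a matching site. RefSeq (GRCm38.p6) places it at chr19:22750610-22750631 on the plus strand, and the capitals mark the seed.
miR-204-5p: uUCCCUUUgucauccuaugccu
The matching sites are AAAGGGAA (8mer), AAAGGGA (7mer-m8), AAGGGAA (7mer-A1) and AAGGGA (6mer). They were searched on the transcript strand in the longest 3′ UTR of each gene in GENCODE M21, whose mm10 (GRCm38) positions are given for genes too. The longer sites contain the shorter ones, so each gene was counted by its best site. Of the 34 members, 0 had an 8mer, 4 had a 7mer-m8 (Btg2, Trp53inp1, Gadd45a and Rrm2b) and 5 a 7mer-A1 (Xpc, Aen, Ccng1, Cdkn1a and Fas). A 7mer or 8mer was thus present in 9 of 34 members and in 26.0% of the 11959 tested genes with a 3′ UTR. The median log2 fold change of miR-204 against miR-Ctrl was −0.04 for the 4 members with a 7mer-m8 and 0.11 for the 5 with a 7mer-A1. It was 0.13 for the 6 with a 6mer and 0.17 for the 19 with none. Over all tested genes of each class it was 0.028, 0.046, 0.062 and 0.079. The 7mer-m8 members were split: Btg2 was at 0.077, Gadd45a at 0.088, Rrm2b at −0.15 and Trp53inp1 at −0.25. The sites of Trp53inp1 and Rrm2b are shown because these genes were lower with miR-204 in all 4 pairs, and that of Cdkn1a because it is the best known p53 target. Capitals mark the site, whose coordinates are given.
Trp53inp1, chr4:11170832-11170838, plus strand: ctgccacaagAAAGGGAgagaaacagt
Trp53inp1, chr4:11174072-11174078, plus strand: ttgaaacttaAAAGGGAcattttggtt
Rrm2b, chr15:37925500-37925506, minus strand: ttccattgttAAAGGGAgcaccagaaa
Rrm2b, chr15:37926999-37927005, minus strand: tatctcatttAAGGGAAtgagaatttg
Cdkn1a, chr17:29100178-29100184, plus strand: agtggactggAAGGGAAtgtatatgca
All of these lie in 3′ UTR exons.

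The binding element of p53 is a pair of 10-base units, known as p53 decamers, that read alike on both strands. Promoter windows of 300 bases, from 250 before to 50 after an annotated start, were found in RefSeq (GRCm38.p6) for 26 of 34 members. A perfect decamer lay in 12 of their 34 windows (35.3%), against 8.36% of all 32851 windows. The 2 windows of Aen hold the same decamer, so 11 of the 26 members had one (42.3%, against 8.21% of tested genes). The members were listed as known targets or regulators of p53, so this excess follows from their choice and is no result of these libraries. A full element of adjoining decamers with at most 2 mismatches outside the fixed C and G lay in 2 of the 34 windows and in 0.326% of all. These windows are short, and many p53 elements are known from introns or from farther upstream. Both full elements are shown with the Mdm2 decamer, since Cdkn1a and Mdm2 are the textbook targets. Capitals mark the match, whose coordinates are given.
Cdkn1a, chr17:29090928-29090947, plus strand: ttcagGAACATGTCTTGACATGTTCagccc
Ccng1, chr11:40755462-40755481, minus strand: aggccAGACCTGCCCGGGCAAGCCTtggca
Mdm2, chr10:117710935-117710944, minus strand: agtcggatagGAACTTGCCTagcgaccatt
A perfect decamer was present in 4 of the 11 members with a window that rose in the paired fit described next, and in 7 of the 15 that did not pass it.

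Most members were slightly higher with miR-204. The fold change was above 0 in 29 of 34 members, against 73.7% of all tested genes, and the median log2 fold change was 0.13, against 0.064 over all tested genes. In limma's test of 4 against 4 libraries, 0 of 34 members passed in either direction at an adjusted p of 0.05. Of all 12517 tested genes, 0.024% were called higher and 0.168% lower. At an unadjusted p of 0.05, 4 members were higher and 0 lower, against 6.57% and 1.96% of all tested genes. Without miR-Ctrl replicate 2, 12 members were higher at that p, as were 1571 of all genes. No label says that equal replicate numbers belong together. They were taken as pairs because same-numbered libraries deviated alike from their group means (r = 0.445 to 0.813 across genes). With the number as a block in the fit, 13 members rose and 1 fell, against 11.7% of all tested genes called higher and 2.7% lower. "Rose" and "fell" refer to this paired fit from here on, and adjusted p-values are from limma over all tested genes.

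The paired counts depended on scaling and on single pairs. With libraries centred on their median, 6 members rose (Tnfrsf10b, Plk2, Perp, Ephx1, Fas and Eda2r; background 4.16%) and Trp53inp1 fell (4.27%). Over all genes, 521 were then higher and 534 lower, instead of 1459 and 338, and the medians were 0.058 for the members and −0.0080 for all genes. With quantile normalization the same 6 rose (4.44%), and Trp53inp1 and Rrm2b fell (4.21%). Without replicate 2, 22 members rose (22.6%) and 2 fell (4.17%), and these included all 14 of the fit with 4 pairs. Without replicate 1 only Perp rose (0.543%) and 0 fell (0.527%), without replicate 4 only Perp rose (0.224%) and 0 fell (0.32%), and without replicate 3 Tnfrsf10b, Perp and Eda2r rose (1.56%) while Trp53inp1 fell (0.991%). Leaving out both libraries of a number keeps 3 pairs, so these fits hold fewer samples.

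**Figure D1:**
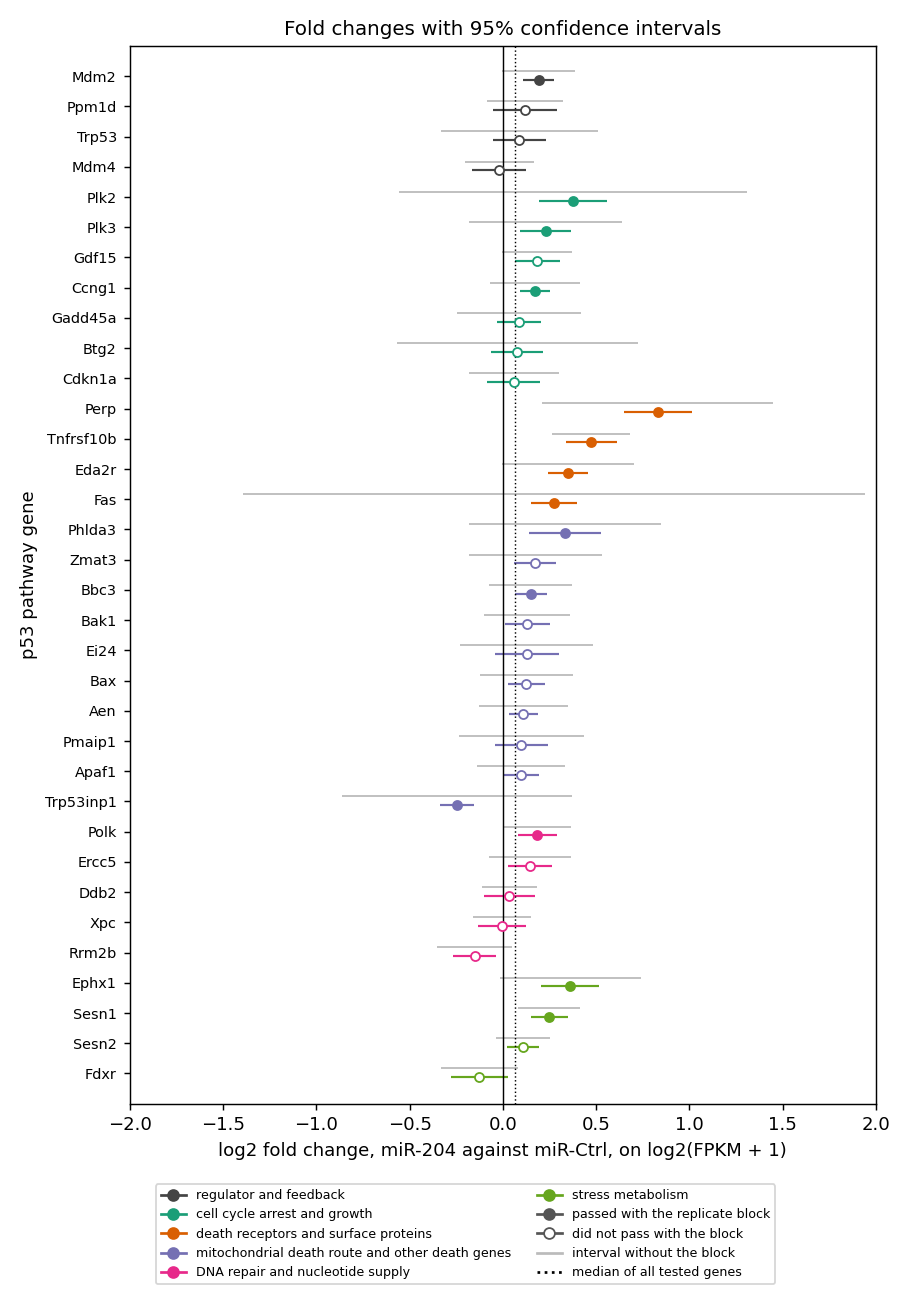
Log2 fold change (miR-204 against miR-Ctrl, on log2(FPKM + 1)) of each of the 34 p53 pathway genes, by role. Points with coloured bars are estimates and 95% confidence intervals with the replicate number as a block, filled where the adjusted p was under 0.05; grey bars are the intervals without it, n = 4 libraries per group. Perp stands at 0.83, Trp53inp1 is the only filled point below 0, and the dotted line is the median of all tested genes at 0.064.

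Perp and Tnfrsf10b, the members with the largest fold changes, belong to the surface proteins and death receptors. Of these 4 of 4 rose, also with centred libraries, against 11.7% and 4.16% of all tested genes. Without replicates 1, 3 and 4, 1, 3 and 1 of them rose, against 0.543%, 1.56% and 0.224%. The class joins Perp with the death receptors, and its genes were chosen with earlier results of these data known. Perp (gene ID 64058; chr10:18845020-18857073, plus strand) encodes a tetraspan membrane protein of desmosomes that takes part in p53-dependent death. Its level was 15.4, 11.7, 10.7 and 23.0 FPKM with miR-Ctrl and 28.5, 18.98, 24.1 and 38.1 with miR-204, for replicates 1 to 4. The groups overlapped, yet within each number the miR-204 library was higher, by 62.8% to 125%. The log2 fold change was 0.83 ± 0.075 (SE of the paired fit, 0.27 unpaired), with an adjusted p of 0.00512 paired and 0.434 unpaired. Group levels were 15.2 ± 5.57 against 27.4 ± 8.12 FPKM (mean ± SD, n = 4). Perp was the 1 member whose change reached 1.5-fold.

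Tnfrsf10b (21933; chr14:69767472-69784411, plus strand) encodes a death receptor of the ligand TRAIL. It was at 18.0, 21.7, 16.9 and 20.8 FPKM with miR-Ctrl and at 24.6, 28.0, 27.3 and 28.7 with miR-204. Every miR-204 library lay above every miR-Ctrl library, which held for 3 of 34 members (Sesn1 and Polk were the others) and for 4.31% of all tested genes. The reverse order was found in 0 members and in 1.56% of all. The rise of Tnfrsf10b was 0.47 ± 0.056 (SE of the paired fit, 0.091 unpaired), with an adjusted p of 0.00861 paired and 0.133 unpaired. The group held 81.0% of its sum of squares over the 8 libraries, the largest share among the members.

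Eda2r (245527; chrX:97333840-97377216, minus strand), the receptor of ectodysplasin A2, is another member of the TNF receptor family. Its level was 5.21, 7.26, 5.63 and 7.17 FPKM with miR-Ctrl and 6.81, 10.4, 7.01 and 9.35 with miR-204. All 4 pairs moved up, by 24.5% to 42.9%, and pair 2 moved most (log2 fold change 0.35, adjusted p = 0.0101). Fas (14102; chr19:34290666-34327772, plus strand), the receptor of Fas ligand, was at 9.94, 45.5, 6.50 and 7.14 FPKM with miR-Ctrl and at 12.04, 50.9, 9.13 and 8.67 with miR-204. The replicate 2 libraries stood far above the others in both groups. Within pairs Fas was higher by 11.8% to 40.4% (0.27, adjusted p = 0.0239 paired and 0.963 unpaired), and it carries a 7mer-A1 site. The replicate number held 98.0% of its sum of squares and the group 1.74%.

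**Figure D2:**
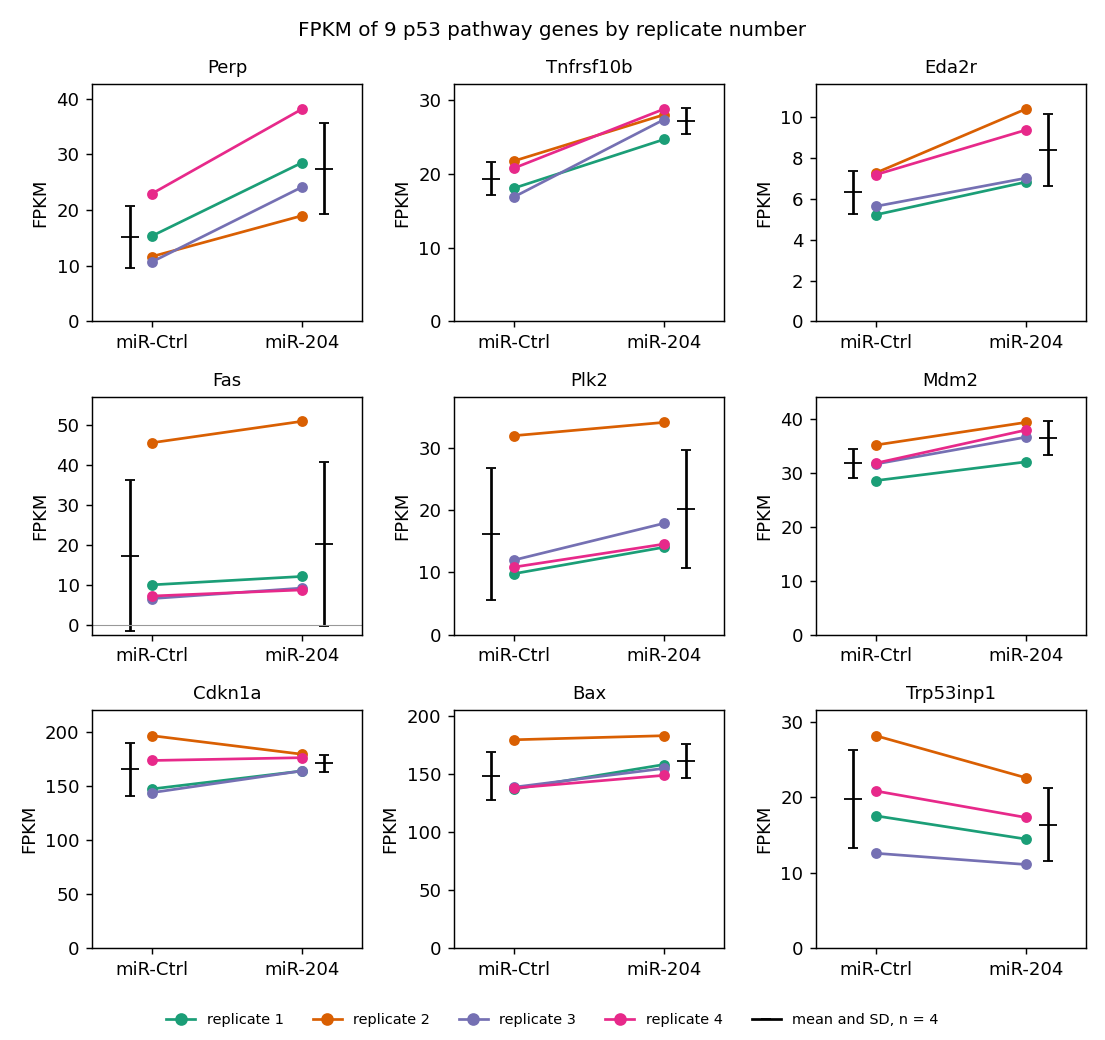
FPKM of 9 p53 pathway genes in the miR-Ctrl and miR-204 libraries, with lines joining libraries of equal replicate number and black marks for mean and SD (n = 4 per group; for Fas the SD exceeds the mean). Perp, Tnfrsf10b, Eda2r, Fas, Plk2 and Mdm2 go up in every pair, Trp53inp1 goes down in every pair, and Cdkn1a goes down in pair 2 only.

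Of 4 regulators, Mdm2 rose (25%, against 11.7% of all tested genes) and Trp53 did not pass. Trp53 itself (22059) was at 48.4, 69.1, 43.2 and 44.5 FPKM with miR-Ctrl and 52.97, 69.4, 52.5 and 42.9 with miR-204 (0.089, adjusted p = 0.326 paired and 0.946 unpaired). Its highest values were those of replicate 2, and pair 4 moved down by 3.65%. Mdm2 (17246; chr10:117688875-117710758, minus strand) was at 28.6, 35.2, 31.7 and 31.9 FPKM with miR-Ctrl and 32.1, 39.5, 36.7 and 38.0 with miR-204. The groups overlapped, and each pair moved up by 11.9% to 19.3% (0.19, adjusted p = 0.0208, but 0.0704 with centred libraries). Mdm4, an inhibitor of p53 related to Mdm2, was at 9.72 ± 0.757 and 9.59 ± 0.873 FPKM (−0.019). Ppm1d, a phosphatase that ends p53 signalling, was at 4.90 ± 0.665 and 5.37 ± 0.167 FPKM (0.12). Neither passed.

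Among 7 genes of arrest and growth, 3 rose (42.9%, against 11.7% of all tested genes), and Cdkn1a was not among them. Without replicate 2, 5 rose (71.4%, against 22.6%), and without replicates 1, 3 and 4, 0 rose. Cdkn1a (12575; chr17:29090976-29100727, plus strand), which encodes the cyclin-dependent kinase inhibitor p21, was at 147, 196, 144 and 173 FPKM with miR-Ctrl and 164, 179, 164 and 176 with miR-204. It moved up by 11.3%, 14.0% and 1.495% in pairs 1, 3 and 4 and down by 8.70% in pair 2. The log2 fold change of 0.058 had a paired 95% interval of −0.084 to 0.20 (adjusted p = 0.528), and it was −0.014 with centred libraries. Without replicate 2 it was 0.12 (adjusted p = 0.0833).

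Plk2, a stress-induced kinase, was at 9.80, 32.0, 11.99 and 10.9 FPKM with miR-Ctrl and at 14.0, 34.1, 17.9 and 14.5 with miR-204. Pairs 1, 3 and 4 were higher by 43.2%, 49.1% and 33.9%, and pair 2, where Plk2 was highest, by 6.66% (0.37, adjusted p = 0.0289). Its relative Plk3 was low, at 1.02, 1.84, 1.93 and 2.43 against 1.63, 2.21, 2.35 and 2.85 FPKM, and rose (0.23, adjusted p = 0.0456, but 0.15 with centred libraries and not called with a pseudocount of 0.1). Ccng1, the cyclin G1 gene, was at 88.1, 113, 96.3 and 107 against 98.5, 124, 112 and 122 FPKM. It rose by 9.22% to 16.3% in the pairs (0.17, adjusted p = 0.0256, but 0.0892 with centred libraries).

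Of the other arrest genes, Gdf15, a secreted stress cytokine, was at 16.7, 16.2, 16.7 and 17.9 against 19.2, 16.5, 20.5 and 21.2 FPKM. All pairs moved up, pair 2 by 2.39%, and the test was missed (0.18, adjusted p = 0.0552; 0.0120 without replicate 2). Gadd45a, a growth arrest gene induced by DNA damage, was at 25.9, 24.1, 29.7 and 32.2 against 29.2, 22.8, 32.7 and 35.3 FPKM. It moved down in pair 2 alone (0.088, adjusted p = 0.255; 0.0267 without replicate 2). Btg2, an antiproliferative gene, was at 15.98 ± 6.12 and 16.7 ± 5.70 FPKM (0.077) and did not pass. Both Gadd45a and Btg2 carry a 7mer-m8 site.

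Among 10 genes of the mitochondrial and other death routes, Bbc3 and Phlda3 rose and Trp53inp1 fell. That is 20% and 10%, against 11.7% and 2.7% of all tested genes. Without replicate 2, 7 rose (70%, against 22.6%) and 1 fell. Without replicates 1, 3 and 4, 0 rose, and 0, 1 and 0 fell. Trp53inp1 (60599; chr4:11156431-11174379, plus strand), a nuclear protein that enhances p53-driven death and autophagy, was at 17.6, 28.2, 12.6 and 20.9 FPKM with miR-Ctrl and at 14.5, 22.6, 11.1 and 17.4 with miR-204. The groups overlapped widely, while every pair moved down, by 17.5%, 19.8%, 11.8% and 16.8%. The log2 fold change was −0.25 ± 0.038 (SE of the paired fit, 0.27 unpaired). The adjusted p was 0.0153 paired, 0.853 unpaired and 0.00500 paired with centred libraries. Trp53inp1 is the member with 2 sites of type 7mer-m8, shown above.

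Bbc3, which encodes the BH3-only protein PUMA, was at 8.22, 10.4, 8.26 and 9.37 against 9.17, 11.7, 9.59 and 10.2 FPKM (0.15, adjusted p = 0.0428, but 0.221 with centred libraries). Phlda3, an inhibitor of the kinase Akt, was at 50.1, 95.4, 48.6 and 56.3 against 72.5, 97.3, 65.3 and 72.6 FPKM (0.33, adjusted p = 0.0428, but 0.0787 with centred libraries). Pairs 1, 3 and 4 of Phlda3 were higher by 44.6%, 34.6% and 29.0%, and pair 2 by 2.03%. Bax, the pore-forming effector of mitochondrial death, was at 137, 180, 139 and 138 against 158, 183, 155 and 149 FPKM. It was higher in all 4 pairs, but by only 1.90% in pair 2, and did not pass (0.13, adjusted p = 0.0847; 0.0239 without replicate 2).

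The remaining death genes did not pass. Their log2 fold changes were 0.17 for the RNA-binding protein gene Zmat3, 0.13 for the second pore former Bak1 and 0.13 for Ei24 of the endoplasmic reticulum. They were 0.11 for the nuclease gene Aen, 0.099 for Pmaip1, which encodes NOXA, and 0.098 for the apoptosome gene Apaf1. Aen differed by 6.49% to 9.93% in the 4 pairs (adjusted p = 0.0654). Pmaip1 was lowest of all members at 0.714 ± 0.222 and 0.843 ± 0.294 FPKM.

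Of 5 repair genes, 1 rose (20%, against 11.7% of all tested genes). It was Polk, a polymerase that copies past damaged bases, which went from 5.79, 6.10, 5.21 and 6.25 to 6.27, 6.89, 6.34 and 7.59 FPKM without overlap (0.18, adjusted p = 0.0410, but 0.147 with centred libraries). Without replicate 2, 2 repair genes rose (40%, against 22.6%) and 1 fell, and without replicates 1, 3 and 4, 0 passed. Rrm2b, the p53-inducible subunit of ribonucleotide reductase, was at 3.39, 3.43, 3.16 and 3.97 against 2.79, 3.33, 2.68 and 3.37 FPKM. It was lower in all 4 pairs, by 2.69% in pair 2 and by 15.2% to 17.6% in the others, and missed the test (−0.15, adjusted p = 0.0829; 0.0322 without replicate 2 and 0.0490 with quantile normalization). The excision repair genes Ddb2 (0.035), Xpc (−0.0046) and Ercc5 (0.15) did not pass; paired 95% intervals were −0.10 to 0.17 for Ddb2 and −0.13 to 0.12 for Xpc.

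Of 4 genes of stress metabolism, Sesn1 and Ephx1 rose (50%, against 11.7% of all tested genes). Without replicates 1, 3 and 4, 0 of these 4 rose. Sesn1, a sestrin that restrains mTORC1, was at 9.78, 9.61, 8.49 and 8.59 against 11.2, 11.8, 9.95 and 11.1 FPKM without overlap (0.25, adjusted p = 0.0178, but 0.0577 with centred libraries). Ephx1, a microsomal epoxide hydrolase, was at 98.2, 135, 79.2 and 109 against 132, 147, 111 and 146 FPKM. Pairs 1, 3 and 4 were higher by 34.1%, 40.7% and 34.1% and pair 2 by 8.53% (0.36, adjusted p = 0.0215). The second sestrin gene, Sesn2, was at 28.6 ± 1.39 and 31.0 ± 1.90 FPKM (0.11) and Fdxr, a mitochondrial reductase, at 6.36 ± 0.387 and 5.77 ± 0.744 (−0.13). Neither passed, although Fdxr was lower in all 4 pairs, as were Rrm2b and Trp53inp1. All 4 pairs were higher in 21 of 34 members, against 33.3% of all tested genes, and lower in 3, against 7.36%.

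Both the replicate number and the mimic went with the level of the members. The median shares of a member's sum of squares were 69.5% for the number, which has 3 degrees of freedom, and 19.2% for the group, which has 1. Over all tested genes they were 73.4% and 10.1%. Per degree of freedom the number's median share was 23.2% for the members and 24.5% for all tested genes. On that scale the number held more than the group in 18 of 34 members, against 67.5% of all tested genes. The group held more in Tnfrsf10b, Perp, Eda2r, Sesn1, Mdm2 and Ephx1, among others. Replicate 2 was the highest library of both groups in 19 members, against 37.4% of all tested genes. In miR-Ctrl, replicate 2 was 5.79 times the mean of the other 3 libraries for Fas, 2.94 times for Plk2, 1.87 times for Btg2, 1.85 times for Phlda3 and 1.52 times for Trp53. In miR-204 these ratios were 5.12, 2.201, 1.80, 1.39 and 1.404. Perp stood the other way, at 0.713 and 0.627 times.

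**Figure D3:**
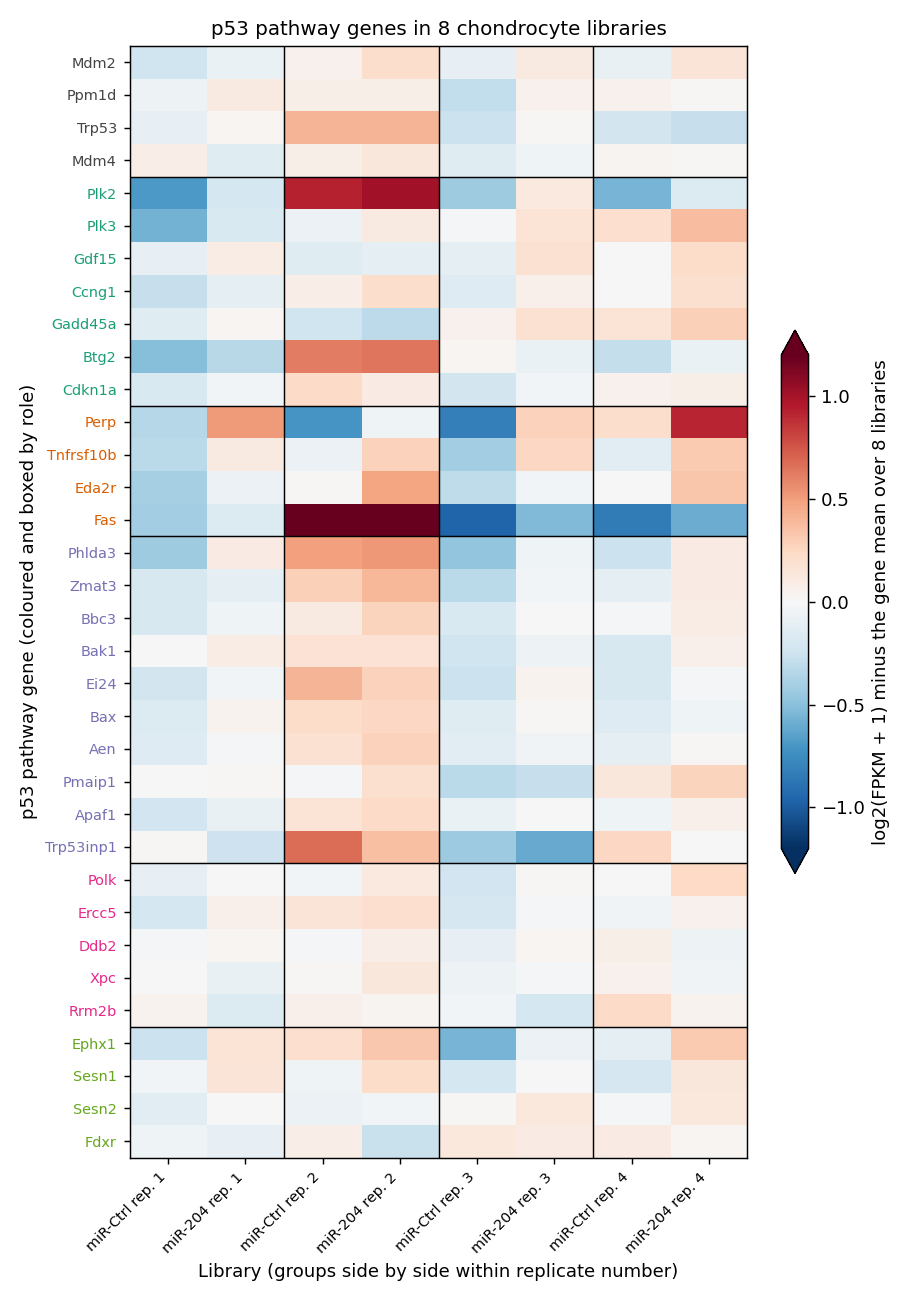
Log2(FPKM + 1) of the 34 p53 pathway genes minus each gene's mean over the 8 libraries, with both groups side by side within each replicate number; colours end at ±1.2, which Fas exceeds in replicate 2. Both replicate 2 libraries are dark for Fas, Plk2 and Btg2, and the miR-204 column is redder than its neighbour for Perp, Tnfrsf10b and Eda2r in all 4 pairs.

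The difference between mimic and control was smallest in pair 2. The median log2 difference of the members was 0.16, 0.078, 0.19 and 0.16 in pairs 1 to 4, against 0.051, 0.044, 0.098 and 0.068 over all tested genes. Pair 2 gave the lowest of the 4 differences in 20 members, against 39.9% of all tested genes, and pair 3 the highest in 17, against 37.6%. Eda2r was among the 4 members whose difference was highest in pair 2. The inflammatory genes above were highest in the replicate 2 libraries, and their part in the smaller difference was not tested.

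**Figure D4:**
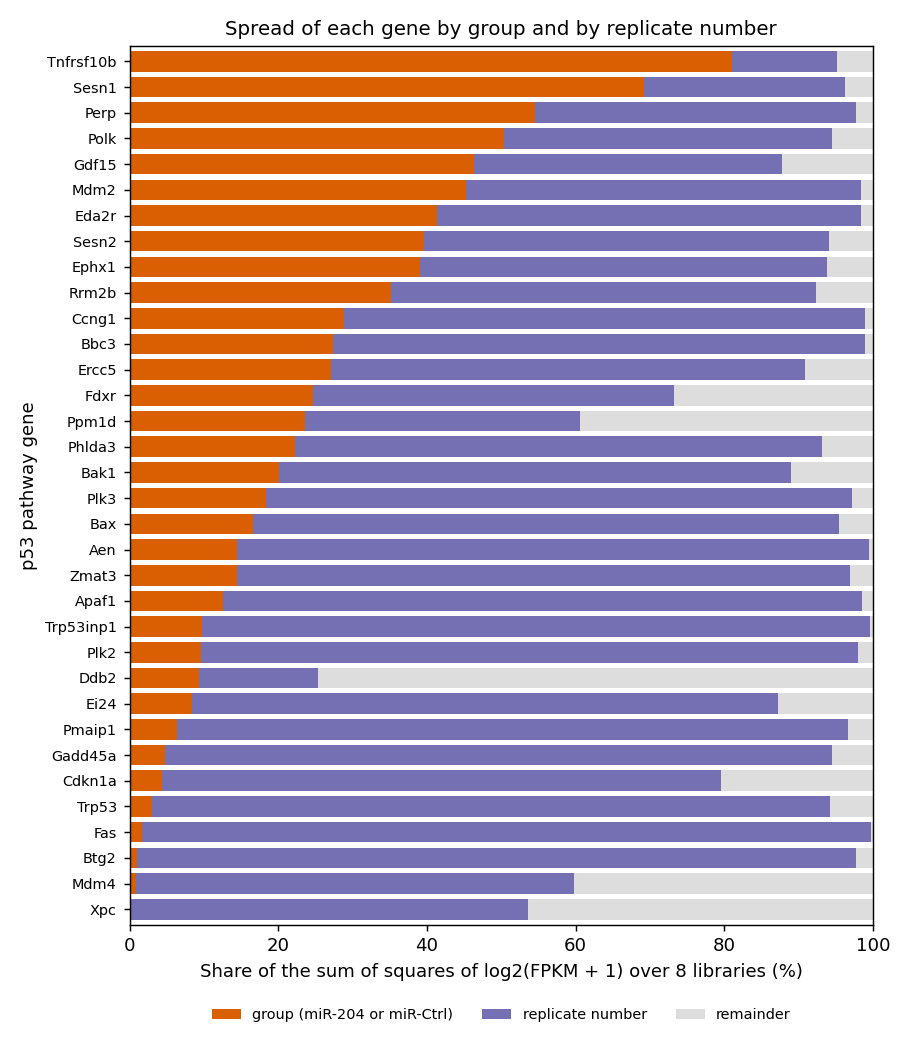
Share of each gene's sum of squares of log2(FPKM + 1) over 8 libraries that lay between groups (orange), between replicate numbers (violet) and in the remainder (grey). Orange is 81.0% for Tnfrsf10b, 4.36% for Cdkn1a and 1.74% for Fas.

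Other lists of the pathway were set beside the members; these were also chosen with earlier results of these data known. Of 42 tested further p53 targets, 12 rose (28.6%) and 0 fell, against 11.7% and 2.7% of all tested genes, with a median log2 fold change of 0.19. With centred libraries 7 rose and 1 fell (all tested genes 4.16% and 4.27%). Without replicate 2, 26 rose and 1 fell (all tested genes 22.6% and 4.17%). Without replicates 1, 3 and 4, 0, 1 and 0 rose (all tested genes 0.543%, 1.56% and 0.224%). The smallest adjusted p-values were those of Psrc1, from 7.40 ± 1.70 to 11.5 ± 1.88 FPKM (0.58, adjusted p = 0.00847), Tob1 (0.23), Rap2b (0.30) and Ckap2 (0.47). Psrc1 and Ckap2 encode spindle proteins of dividing cells. Of 24 tested kinases, ligases and cofactors upstream of p53, only the cofactor gene Ppp1r13b rose (0.20, adjusted p = 0.0288, but 0.133 with centred libraries) and 0 fell, with a median of 0.033.

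Cell cycle genes that p53 is known to repress, through p21 and the DREAM complex, were higher with miR-204. Of 26 tested, 21 rose (80.8%, against 11.7% of all tested genes) and 0 fell (against 2.7%). The median log2 fold change of the list was 0.40, against 0.064 over all tested genes. With centred libraries 13 rose (50%, against 4.16%). Mcm5 (0.41), Nek2 (0.45), Aurkb (0.52) and Ccnb2 (0.51), genes of replication and mitosis, had the smallest adjusted p-values. Without replicate 2, 20 of the 26 rose (76.9%, against 22.6% of all tested genes). Without replicates 1, 3 and 4 the counts were 0, 5 and 0, against 0.543%, 1.56% and 0.224% of all tested genes.

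Of 18 tested genes of the BCL2 and caspase families outside the members, Bcl2l2 fell from 15.5 ± 0.801 to 11.8 ± 1.03 FPKM without overlap (−0.37, adjusted p = 0.00983). Bcl2l2 encodes the survival protein BCL-W. The BH3-only gene Bid (0.66) and the survival genes Mcl1 (0.14) and Bcl2l1 (0.25) rose, of which Mcl1 and Bcl2l1 did not pass with centred libraries. The 3 that rose were 16.7% of this list and the 1 that fell 5.56%, against 11.7% and 2.7% of all tested genes. Without replicate 2, 6 genes of this list rose (33.3%, against 22.6%) and 1 fell. Without replicates 1, 3 and 4, 0, 1 and 0 rose, against 0.543%, 1.56% and 0.224% of all tested genes, and 0, 1 and 0 fell. Of 21 other repair genes, Mgmt rose (0.41) and 0 fell, so 4.76% rose, against 11.7% of all tested genes. With centred libraries 1 rose and 1 fell (all tested genes 4.16% and 4.27%). Without replicate 2, 4 rose (19%, against 22.6%) and 1 fell, and without replicates 1, 3 and 4, 0 passed. Of 15 tested senescence-associated genes, 5 rose (33.3%, against 11.7% of all tested genes) and 0 fell. The counts were 3 and 1 with centred libraries, and 7 (46.7%, against 22.6%) and 0 without replicate 2. Without replicates 1, 3 and 4, 0, 1 and 0 rose. Hmgb2 (0.45), Lmnb1 (0.30), Ccl2 (0.72) and Cxcl2 (0.43) had the smallest adjusted p. Lmnb1 and Hmgb2 are known to be lowered in senescent cells, so the counts of this list mix genes of both directions. Ccl2 and Cxcl2 were highest in replicate 2, and the call of Cxcl2 was lost with centred libraries.

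Markers of other cells bear on a bulk sample, where fewer cells of a type and less RNA per cell cannot be told apart. For comparison with the counts below, 11.7% of all tested genes rose and 2.7% fell. With centred libraries these shares were 4.16% and 4.27%, and without replicate 2 they were 22.6% and 4.17%. Some smooth muscle and pericyte markers moved with the groups. Of 8 listed, 5 were tested: Acta2 (1.01), Tagln (0.55) and Mcam (0.82) rose, while Cnn1 (0.049) and Notch3 (0.11) did not pass. The list's summed level was 142 to 184 FPKM with miR-Ctrl and 244 to 346 with miR-204. Of that list Acta2 also passed unpaired (adjusted p = 0.0255), while Myh11, Rgs5 and Des had means of 0.103, 0.209 and 0.196 FPKM. Interferon response genes summed to 30.9 to 143 FPKM against 90.2 to 361, and of 11 tested Bst2 (1.24) and Cxcl10 (0.87; not called with centred libraries) rose. Without replicate 2, 9 of these 11 rose (81.8%), and without replicates 1, 3 and 4, 0, 1 and 0 rose. The list's median log2 difference was 1.51, 0.93 and 1.49 in pairs 1, 3 and 4 and −0.47 in pair 2. No listed marker had a mean of exactly 0. Epithelial markers, given here because Perp is abundant in epithelia, had 2 of 6 above 0.5 FPKM (Krt8 and Krt18, which did not pass with 4 pairs and rose without replicate 2). Their summed level was 0.738 to 1.77 FPKM against 0.8286 to 4.84, with Krt5 and Krt14 at means of 0.0438 and 0.0167. All 6 endothelial markers were below 0.5 FPKM, at sums of 0.147 to 0.484. Of 8 macrophage markers 3 were tested and Cd68 rose (1.01; all 3 without replicate 2), with Ptprc at a mean of 0.011 FPKM. Of 6 skeletal muscle markers 2 were tested and Acta1 rose (0.94), of 9 fibroblast markers Thy1 rose (0.42; not called with centred libraries; 3 rose without replicate 2), and 0 of 4 tested osteoblast markers (2 rose without replicate 2) and 0 of 1 tested adipocyte marker passed. Of the inflammatory list Ccl2 rose (3 of 11 without replicate 2). Of 10 chondrocyte markers Hapln1 (−1.04) and Comp (−0.17) fell; 3 fell with centred libraries and 6 without replicate 2, and 4 were lower in all 4 pairs. Without replicates 1, 3 and 4 in turn, 3, 3 and 2 smooth muscle markers and 0, 1 and 0 macrophage markers rose. In those fits 0 genes rose in the skeletal muscle, fibroblast, osteoblast, epithelial and inflammatory lists, and 1 chondrocyte marker fell each time. Over all tested genes 0.543%, 1.56% and 0.224% rose and 0.527%, 0.991% and 0.32% fell. The part of these cell markers in the members' differences was not tested.

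Exons of 7 members overlap those of another annotated gene (GENCODE M21). Only genes annotated as protein-coding, lincRNA, antisense or processed transcript were counted here. For 6 of them that gene lies on the opposite strand, as Ggnbp1 does for Bak1, Tctex1d4 for Plk3, Acp2 for Ddb2, Gm49085 for Rrm2b, E230016M11Rik for Gadd45a and Gm26787 for Ei24. For Bax it is Gm45808 on the same strand. The libraries were stranded, but no source used here gives whether the authors' quantification used the strand, so the values of these 7 genes may hold fragments of their neighbours.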

How the data were processed

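RNA of 8 libraries was sequenced after polyadenylated RNA selection with a stranded kit, per the labels' protocols. The authors deposited a table of FPKM values, genes by libraries. TopHat, Cufflinks 2.2.1 and the build mm10 are named in the submitters' processing notes, without parameters. FPKM are not counts, so read totals are unknown and no count model was used. Relative depth was estimated from low values, as the commonest ratio of the value in miR-Ctrl replicate 1 to that of the library. That ratio was shared by only 43 to 252 of the 2414 to 2566 low genes compared.

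The 12517 genes whose mean reached 0.5 FPKM entered limma 3.58.1 (R 4.3.3). Values were log2(FPKM + 1), the variance prior was trended, tests were two-sided, and p-values were adjusted over all these genes (Benjamini-Hochberg). Fold changes on this scale understate changes of low genes. The fit without a block was the main design. Across genes, the deviations of same-numbered libraries from their group means had r = 0.445, 0.813, 0.747 and 0.614. The numbers, which the labels give without saying what they mark, were therefore taken as pairs; the paired result is printed because it changed calls. The alternatives covered scaling, pseudocount, filter and left-out libraries.

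The members, lists and tests were chosen with earlier results of these data known. Named were all members, with library values for those called, for Trp53, Cdkn1a, Mdm2, Bax, Bbc3, Gadd45a and Gdf15 (that of Rrm2b was added after its values were seen), and of other lists up to 4 genes called with the block or the 2 of highest mean. Defining markers of other cells at or near 0 (Myh11, Rgs5, Des, Krt5, Krt14, Ptprc) were named after their values were seen. The fits were tested on simulated data in which equal numbers were pairs, with 100 genes changed at each fold. Without the block, 0% of 1.25-fold and 39% of 1.5-fold changes were recovered. With the block 80% and 99% were recovered, and 6.77% of its calls were false. Hence 0 member calls without the block do not exclude changes of 1.25-fold. Sites and promoter windows were searched in Python 3.11.15.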

Additional observations from a re-analysis of the deposited data

Results flagged for a closer look

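In 8 of 68 combinations of member and group, 1 library lay far from the other 3 of its group by Dixon's test at the 95% level, which compares the gap to the nearest library with the group's range. Chance gives this in about 1 in 20 groups. All 8 were high values of replicate 2, in 6 members. In miR-Ctrl replicate 2 they were Bax at 179.7 FPKM (the others 137 to 139), Phlda3 at 95.4 (48.6 to 56.3), Aen at 43.5 (34.1 to 35.0), Plk2 at 32.0 (9.80 to 11.99), Fas at 45.5 (6.50 to 9.94) and Ei24 at 41.2 (25.7 to 26.8). In miR-204 replicate 2 they were Aen at 46.3 FPKM (36.9 to 38.5) and Fas at 50.9 (8.67 to 12.04). The same libraries held the highest summed level of the inflammatory list, and its part in these values was not tested.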

How the results depend on the processing

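Without the block, 0 members were called higher and 0 lower, with the libraries as deposited and with centring, quantile normalization, pseudocounts of 0.1 and 0.5, a minimum of 1 FPKM, no minimum (5 higher at an unadjusted p of 0.05 in limma) or any library left out. With the replicate block, 13 members were higher and 1 lower, and 1459 and 338 of all genes. With the block and median centring these counts were 6, 1, 521 and 534. With the block and quantile normalization they were 6, 2, 556 and 527, with the block and a pseudocount of 0.1 they were 12, 1, 1452 and 342, and with the block and a minimum of 1 FPKM 13, 1, 1436 and 329. With the block and without replicates 1, 2, 3 and 4 in turn, 1, 22, 3 and 1 members were higher and 0, 2, 1 and 0 lower; over all genes 68, 2828, 195 and 28 were higher and 66, 522, 124 and 40 lower. Without the block, the 3 higher and 21 lower genes became 8 and 56 with centring, 7 and 64 with quantile normalization and 0 and 9 with no minimum (1123 and 357 at an unadjusted p of 0.05). Leaving out a single library gave 0 to 5 higher and 1 to 13 lower genes. Fits without libraries hold fewer samples; the cause of the other shifts was not tested.

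The members' median of 0.13 was 0.058 with centred libraries and 0.068 with quantile normalization, with and without the block, and 0.092 to 0.22 with a single library left out, highest without miR-Ctrl replicate 2. With centring Cdkn1a was at −0.014 and Ddb2 at −0.037, and with quantile normalization at −0.0067 and −0.053, paired or not. With a single library left out and no block, log2 fold changes turned sign for 6 members: Trp53 (−0.033 to 0.24), Cdkn1a (−0.0047 to 0.14), Mdm4 (−0.071 to 0.026), Btg2 (−0.12 to 0.30), Fas (−0.29 to 0.88) and Xpc (−0.050 to 0.024). The lowest values of Trp53, Btg2 and Fas were those without miR-204 replicate 2. With the block and a replicate number left out, only Mdm4 (−0.057 to 0.048) and Xpc (−0.046 to 0.024) did so. FPKM hold no read totals, so the counting error of low members such as Pmaip1 is unknown.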
